A study of Macaca mulatta with 8 samples.

Results

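The DNAJ proteins, also known as HSP40 proteins, are the co-chaperones of the HSP70 chaperones, and the transcripts of this gene family were followed in primary rhesus macaque microglia. Members were taken by symbol, as every row of the count tables whose gene symbol starts with DNAJA, DNAJB or DNAJC. This gave 42 of 35432 rows, namely 4 DNAJA, 11 DNAJB and 27 DNAJC genes. Of these, 35 reached 10 counts in at least 4 libraries and were compared between conditions (4 DNAJA, 9 DNAJB and 22 DNAJC), among 12267 genes kept by the same rule. A further family gene, DNAJC14 (ENSMMUG00000006293), carries no symbol in the tables and therefore is not a member. Its log2 fold change with MRS2578 was 0.10 (adjusted p = 0.903, SE 0.09).

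The J-domain of a DNAJ protein binds to HSP70 and triggers the hydrolysis of its ATP, which locks HSP70 onto an unfolded client, and nucleotide exchange factors later release it. Class A and class B members also bind clients themselves, and class A carries a zinc finger region in addition, whereas class C members share little with the others besides the J-domain and mostly serve a single place or task, such as the ER lumen, the mitochondrial import motor, clathrin coats or the ribosome. In many cell types, several cytosolic members of classes A and B are targets of the heat shock factor HSF1, and several members of the ER are induced in the unfolded protein response.

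Microglia, the macrophages that reside in the brain, were isolated from the subcortical white matter of 4 adult, outbred rhesus macaques (R07110, R12016, R02046 and R14143) and were cultured for 8 days with serum and the growth factor M-CSF. On day 7, a culture of each donor was exposed to 10 µg/mL uLPS (ultrapure LPS, an agonist of TLR4), and another was given 5 µM MRS2578, a selective but not entirely specific antagonist of the UDP receptor P2RY6, 1 h before the same uLPS. RNA was extracted 16 h after uLPS, so the 8 libraries form 4 pairs, every library had uLPS, and cells without uLPS or with MRS2578 alone were not analysed here. According to the study's methods, R07110 and R12016 were males and R02046 and R14143 females, and sex cannot be told apart from the individual donors.

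The conditions of the R02046 pair are in doubt. The sample labels and the expression table supplementary to the paper give opposite conditions for these libraries. Of the 8 CPM columns of that table, 6 were proportional to the counts of the library with the same donor and condition, and the 2 columns of R02046 were each proportional to the other library of that donor. The labels are the main assignment here. For the members described one by one, the fitted change is also given with the R02046 libraries exchanged and without R02046, and other values are with the labels unless stated. Exchanging them turns the sign of every difference in that donor.

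Total counts per library ran from 9231109 to 32790348, and the smallest library was the R02046 library labelled uLPS. The summed level of 14 microglia and macrophage markers was 4882 to 5912 CPM (counts scaled to the size of each library) with uLPS and 4620 to 5472 CPM with MRS2578, and TMEM119 was under 1 CPM in all libraries. All 6 lymphocyte and all 3 neuron markers were under 1 CPM everywhere. The 7 fibroblast and mural cell markers summed to 88.5 to 1171 CPM with uLPS and 212 to 521 CPM with MRS2578. The 4 endothelial markers summed to 155 to 298 CPM, the 5 astrocyte markers to 69.9 to 174 CPM and the 5 oligodendrocyte markers to 59.8 to 75.2 CPM over all 8 libraries, with CDH5, CLDN5, MOBP, MOG and OLIG2 under 1 CPM everywhere. In bulk RNA, fewer cells of a type and less RNA per cell cannot be told apart.

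The first question was which DNAJ genes microglia express after uLPS. Levels were compared between genes as CPM per kilobase of exon, averaged over the 4 libraries labelled uLPS. By this measure DNAJA1, a general class A co-chaperone of cytosolic HSP70, was the most abundant member at 114 CPM per kilobase (range 90.9 to 158). The highest class C level was that of DNAJC25 at 65.6 (59.2 to 71.5), and the highest class B level was that of DNAJB6, which keeps aggregation-prone proteins soluble, at 64.8 (60.0 to 77.2). Their ranges overlapped with each other and with those of DNAJB11, an ER luminal co-chaperone of BiP, at 64.6 (55.1 to 90.3) and DNAJC5, the cysteine string protein of secretory vesicles, at 57.7 (47.1 to 62.8). The order depends on the exon lengths, which are NCBI's, while the counts carry Ensembl gene IDs. In plain CPM, the means of DNAJC5 (301) and DNAJC10 (261) lay above that of DNAJA1 (247.5). That of DNAJB1 (152) lay above that of DNAJB6 (127).

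**Figure D1:**
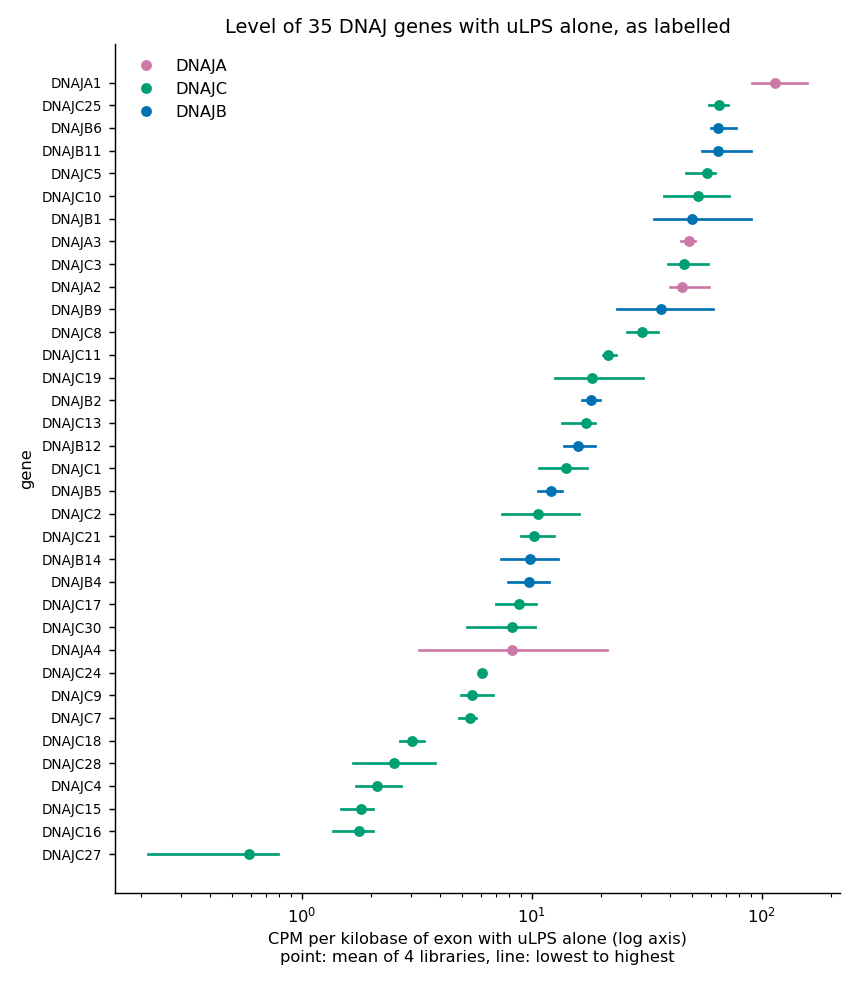
CPM per kilobase of exon (horizontal log axis) of the 35 compared DNAJ genes with uLPS alone, with points for the mean of the 4 libraries labelled uLPS, lines from the lowest to the highest library and colors for the 3 classes. DNAJA1 stands highest at 114 and DNAJC27 lowest at 0.593, and the line of DNAJA4 is the widest among the class A members, from 3.23 to 21.4.

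The other 7 members were not compared. DNAJB7, DNAJB13, DNAJC5B, DNAJC5G, DNAJC12 and DNAJC22 had 0 to 7 counts over the 8 libraries together, with at most 3 in any library. A count of 0 allows up to 0.0915 CPM in the largest library and 0.325 CPM in the smallest, counting error only. DNAJC6, the neuronal auxilin that uncoats clathrin vesicles, had 9 counts with uLPS and 27 with MRS2578 in R07110, and 12 and 39 in R12016. It had 4 and 4 in R02046 as labelled and 3 and 2 in R14143. It missed the minimum because only 3 libraries reached 10 counts.

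The main question was how the family differed between uLPS with MRS2578 and uLPS alone within each animal. In R07110 and R12016, DNAJA4 and DNAJB1 were far higher with MRS2578, whereas most class C members differed little. In R14143 both were moderately higher, and in R02046 as labelled both were lower. With the labels as given, no member passed the test at an adjusted p of 0.05, nor did any other of the 12267 genes (0.00% called).

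DNAJA4 (ENSMMUG00000014204, chr7:55508767-55526378 of Mmul_10, plus strand) is a class A co-chaperone that is low in unstressed cells. With uLPS its levels in R07110, R12016, R02046 and R14143 were 10.9, 16.3, 72.2 and 11.2 CPM. With MRS2578 it was at 341, 685, 9.81 and 24.7 CPM in the same order. The pair of R02046 thus ran against the other 3 pairs, and the groups overlapped. The difference was 31.0-fold in R07110, 41.7-fold in R12016 and 2.19-fold in R14143, and it was 7.29-fold lower with MRS2578 in R02046 as labelled. The fitted log2 fold change was 2.62 (adjusted p = 0.875, SE 1.66) with the labels, 3.73 (adjusted p = 0.0620, SE 0.70) with R02046 exchanged and 4.02 (adjusted p = 0.194, SE 0.93) without R02046.

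DNAJB1 (ENSMMUG00000017906, chr19:14137691-14153719, minus strand) is the main heat-inducible class B co-chaperone of cytosolic HSP70. It was at 104 (R07110), 113 (R12016), 276 (R02046) and 115 (R14143) CPM with uLPS and at 992, 1585, 137 and 188 CPM with MRS2578. The library of R02046 labelled uLPS was the highest of its group, and that labelled MRS2578 the lowest of its group. The differences were 9.49-fold, 13.97-fold and 1.63-fold in R07110, R12016 and R14143, and 2.01-fold lower with MRS2578 in R02046. The log2 fold change was 1.75 (adjusted p = 0.873, SE 0.87) with the labels, 2.20 (adjusted p = 0.105, SE 0.54) with R02046 exchanged and 2.65 (adjusted p = 0.203, SE 0.63) without R02046.

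Together, DNAJA4 and DNAJB1 made up 4.92% of all DNAJ counts with uLPS and 34.3% with MRS2578 in R07110, and 5.35% and 42.9% in R12016. The shares were 5.31% and 8.22% in R14143, and 11.6% and 5.45% in R02046 as labelled. The whole family summed to 2346 and 4059 CPM in R07110, 2252 and 5419 in R12016, 2335 and 2659 in R14143 and 3037 and 2650 in R02046, always in the order uLPS and uLPS with MRS2578. Without these genes, the median log2 difference of the other 33 members was 0.083, 0.002, -0.086 and -0.067 in R07110, R12016, R14143 and R02046.

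**Figure D2:**
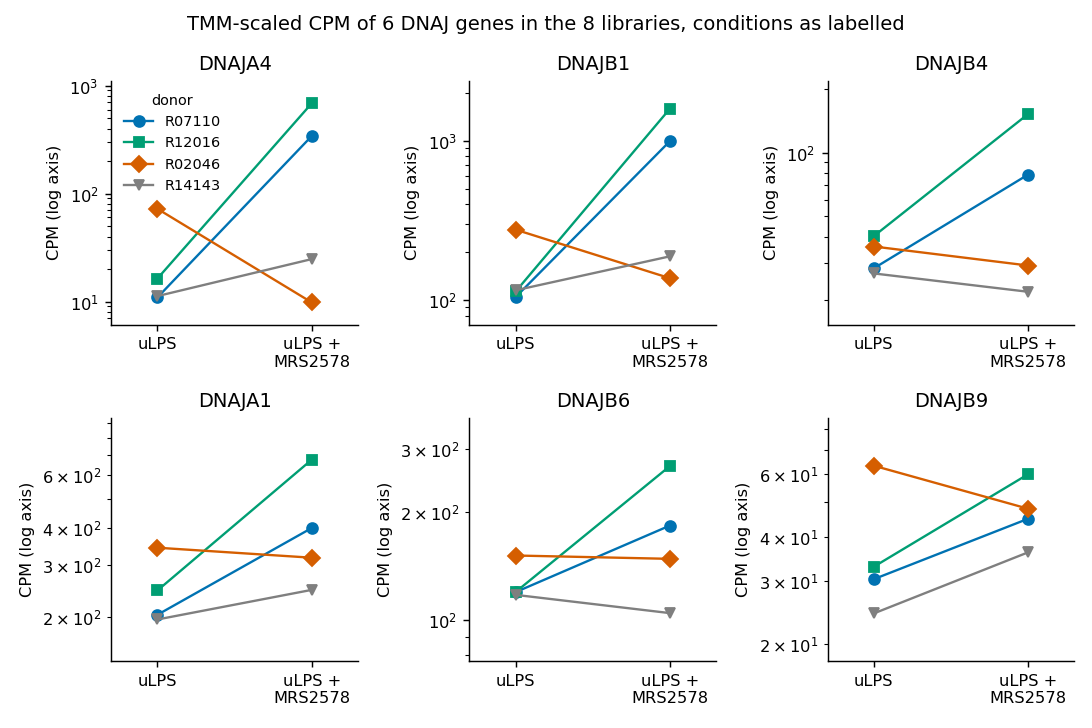
TMM-scaled CPM (vertical log axis, a scale of its own in each panel) of 6 DNAJ genes with uLPS and with uLPS and MRS2578, with one line and symbol for each of the 4 donors and conditions as labelled. In R07110 and R12016 all 6 genes were higher with MRS2578, in R02046 all 6 were lower, and in R14143 DNAJB4 and DNAJB6 were lower and the other 4 higher.

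DNAJA1 (ENSMMUG00000007740, chr15:50846408-50861109, minus strand) was at 204, 246, 343 and 197 CPM with uLPS in R07110, R12016, R02046 and R14143, and at 399, 677, 317 and 247 CPM with MRS2578. Its groups overlapped, and R02046 as labelled was the only pair in which it was lower with MRS2578, by 0.11 on the log2 scale. With the labels it ranked first among the members by unadjusted p, with a log2 fold change of 0.66 (adjusted p = 0.873, SE 0.25). The value was 0.72 (adjusted p = 0.152, SE 0.21) with R02046 exchanged and 0.92 (adjusted p = 0.196, SE 0.22) without R02046.

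DNAJB4 (ENSMMUG00000050425, chr1:146375695-146413910, minus strand) is a class B co-chaperone closely related to DNAJB1. It was at 28.3, 40.2, 35.9 and 26.8 CPM with uLPS in R07110, R12016, R02046 and R14143, and at 78.8, 153, 29.2 and 21.9 CPM with MRS2578. It was higher in R07110 (2.77-fold) and R12016 (3.79-fold), and lower by 0.30 in R02046 as labelled and by 0.29 in R14143 on the log2 scale. In R14143, DNAJB4 and DNAJB1 thus lay on opposite sides of 0. The log2 fold change of DNAJB4 was 0.72 (adjusted p = 0.873, SE 0.41) with the labels, 0.89 (adjusted p = 0.243, SE 0.34) with R02046 exchanged and 1.08 (adjusted p = 0.351, SE 0.42) without R02046. DNAJB6 (ENSMMUG00000003176, chr3:183347193-183429866, plus strand) had the same pattern of donors. It was at 119.9, 120, 152 and 118 CPM with uLPS and at 184, 269, 148 and 105 CPM with MRS2578, and its log2 fold change was 0.40 (adjusted p = 0.873, SE 0.22) with the labels, 0.41 (adjusted p = 0.362, SE 0.20) with R02046 exchanged and 0.54 (adjusted p = 0.415, SE 0.24) without R02046.

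To show the sequence upstream of the members with the largest differences, the 250 bases before an annotated start were read from the RefSeq genome of Mmul_10, 5′ to 3′ on the strand of the gene. All 42 members were found in this annotation. Both strands were searched for a pair of inverted heat shock units, GAANNTTC or TTCNNGAA, which is a part of the element bound by heat shock factors. DNAJA4 and DNAJB1 are shown because they differed most, DNAJA1 and DNAJB4 because they differed with them and hold 1 pair each, and DNAJB6 and DNAJB5 because they alone among the members hold 3 alternating units. Capitals mark the matched letters. DNAJA4 (chr7:55508517-55508766, plus strand) and DNAJB1 (chr19:14141478-14141727, minus strand) hold no match in these windows, nor before any other start annotated for them.
DNAJA4: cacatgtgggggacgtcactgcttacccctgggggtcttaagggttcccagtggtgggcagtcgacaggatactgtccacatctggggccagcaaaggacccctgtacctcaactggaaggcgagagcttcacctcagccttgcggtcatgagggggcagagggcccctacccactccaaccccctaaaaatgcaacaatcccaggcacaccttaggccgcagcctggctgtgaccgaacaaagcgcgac
DNAJB1: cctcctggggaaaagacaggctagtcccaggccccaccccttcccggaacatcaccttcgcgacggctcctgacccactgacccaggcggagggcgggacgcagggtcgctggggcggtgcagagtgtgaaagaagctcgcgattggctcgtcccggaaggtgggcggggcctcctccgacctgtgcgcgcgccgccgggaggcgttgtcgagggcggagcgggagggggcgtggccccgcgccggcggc
DNAJA1 (chr15:50861110-50861359, minus strand): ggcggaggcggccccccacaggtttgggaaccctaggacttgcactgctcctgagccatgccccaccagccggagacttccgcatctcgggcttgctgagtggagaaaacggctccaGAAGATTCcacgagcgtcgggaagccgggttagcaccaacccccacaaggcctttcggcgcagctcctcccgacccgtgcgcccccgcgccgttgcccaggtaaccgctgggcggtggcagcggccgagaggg
DNAJB4 (chr1:146389377-146389626, minus strand): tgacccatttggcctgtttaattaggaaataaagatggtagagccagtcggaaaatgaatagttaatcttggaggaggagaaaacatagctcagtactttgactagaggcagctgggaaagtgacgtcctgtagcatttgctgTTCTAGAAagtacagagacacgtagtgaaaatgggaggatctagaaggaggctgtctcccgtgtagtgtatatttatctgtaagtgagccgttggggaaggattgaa
DNAJB6 (chr3:183346943-183347192, plus strand): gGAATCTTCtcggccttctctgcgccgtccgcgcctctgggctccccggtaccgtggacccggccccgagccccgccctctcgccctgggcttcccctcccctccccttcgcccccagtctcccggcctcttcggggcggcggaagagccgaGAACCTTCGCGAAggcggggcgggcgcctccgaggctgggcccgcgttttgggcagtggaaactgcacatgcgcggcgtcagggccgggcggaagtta
DNAJB5 (chr15:49238586-49238835, minus strand): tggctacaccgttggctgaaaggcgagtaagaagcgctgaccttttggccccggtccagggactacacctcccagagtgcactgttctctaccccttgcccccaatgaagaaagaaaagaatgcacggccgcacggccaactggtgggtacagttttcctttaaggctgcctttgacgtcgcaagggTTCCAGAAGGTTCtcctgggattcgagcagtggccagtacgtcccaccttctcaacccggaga

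A pair stood before the 5′-most start of 5 of the 42 members (11.9%), against 10% of 20787 protein-coding genes. GAANNTTC was found in 3 members (7.14%) against 5.17% of all genes, and TTCNNGAA in 4 (9.52%) against 5.55%. Where both occur they can overlap, and 3 alternating units were present in 2 members (4.76%) and in 0.346% of all genes. DNAJC21 and DNAJC24 hold 1 pair each. The windows shown for DNAJB1 and DNAJB4 do not lie before the 5′-most start. Among the annotated starts of DNAJB4, only the window shown holds a pair, and the windows before its other starts, the 5′-most included, hold none. Over all annotated starts, a pair stood before 8 of 99 starts of the members (8.08%), against 9.58% of 48176 starts of protein-coding genes. DNAJB5, with its 3 units, was at 34.8 and 39.4 CPM in R07110 and 39.3 and 42.7 CPM in R12016 in the order uLPS and MRS2578, and its log2 fold change was 0.03 (adjusted p = 0.976, SE 0.11) and 0.02 (SE 0.13) without R02046. A match is a match of letters and not a binding site, and its absence says only that these letters are not in the window.

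Of the members of the ER, DNAJB9 (ENSMMUG00000063700, chr3:134881428-134884978, plus strand), a BiP co-chaperone that restrains the stress sensor IRE1, had the smallest adjusted p under the exchange. It was at 30.4, 32.9, 63.2 and 24.3 CPM with uLPS in R07110, R12016, R02046 and R14143, and at 44.9, 59.8, 47.9 and 36.1 CPM with MRS2578. The difference was similar in R07110 (1.48-fold) and R14143 (1.48-fold), with 1.82-fold in R12016, and R02046 as labelled was 1.32-fold lower. The log2 fold change was 0.40 (adjusted p = 0.873, SE 0.20) with the labels, 0.60 (adjusted p = 0.0575, SE 0.11) with R02046 exchanged and 0.67 (adjusted p = 0.154, SE 0.12) without R02046. The core of the ER stress element, CCACG on either strand, is marked in capitals in the window before its start (chr3:134881178-134881427, plus strand), where it occurs 2 times.
DNAJB9: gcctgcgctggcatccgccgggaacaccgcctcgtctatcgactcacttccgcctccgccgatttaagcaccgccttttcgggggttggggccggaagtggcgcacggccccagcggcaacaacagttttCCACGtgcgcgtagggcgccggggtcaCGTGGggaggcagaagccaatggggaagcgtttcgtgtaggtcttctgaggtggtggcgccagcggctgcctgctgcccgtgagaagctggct

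CCACG was present before 19 of the 42 members (45.2%) and before 33.9% of all genes. The longer element, CCAAT followed after 9 bases by CCACG, was present in 0 members and in 0.0625% of all genes. DNAJC3 (ENSMMUG00000040500, chr17:77459744-77563441, plus strand), an ER luminal co-chaperone that binds unfolded clients for BiP, was at 103, 89.6, 133 and 96.5 CPM with uLPS and at 109.5, 121, 132 and 111 CPM with MRS2578 in R07110, R12016, R02046 and R14143. It was higher in 3 pairs and nearly equal in R02046. Its log2 fold change was 0.18 (adjusted p = 0.873, SE 0.10) with the labels, 0.18 (adjusted p = 0.392, SE 0.10) with R02046 exchanged and 0.24 (adjusted p = 0.409, SE 0.11) without R02046.

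In all, 5 of the 7 members listed here for the ER had a positive log2 fold change with the labels, and their median was 0.18. Among all 12267 genes, 5841 were positive. DNAJB11 (0.18) and DNAJC10, a disulfide reductase (0.19), were on the side of DNAJB9 and DNAJC3, and so was the membrane protein DNAJB14 (0.02). DNAJB12 (-0.08), its membrane-bound relative, and DNAJC1 (-0.23) were on the other side. The median was 0.18 with R02046 exchanged and 0.24 without R02046. None of the 7 passed the test. DNAJC16 (0.26), DNAJC18 (-0.21) and DNAJC25 (-0.22) were not placed in any list of location, so the ER list may be incomplete.

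Other members were lower with MRS2578. DNAJC9 (ENSMMUG00000011282, chr9:64479848-64497170, plus strand), a co-chaperone that also binds histones, was at 22.6, 21.2, 29.4 and 22.0 CPM with uLPS in R07110, R12016, R02046 and R14143, and at 19.7, 18.6, 18.9 and 18.9 CPM with MRS2578. The groups did not overlap as labelled. The log2 fold change was -0.31 (adjusted p = 0.873, SE 0.13), -0.20 (SE 0.12) without R02046 and -0.01 (SE 0.16) with R02046 exchanged. Its exons overlap those of FAM149B1 on the other strand by 394 bases and those of MRPS16 on its own strand by 20 bases, so its count is uncertain. The strand setting of the counting is not given in the sources used here. Exons on the opposite strand also overlap DNAJC7 (by 3241 bases, CNP), DNAJC5 (1795 bases), DNAJB5 (808 bases) and DNAJC2 (452 bases, PMPCB), and these counts are uncertain too.

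DNAJA3 (ENSMMUG00000008134, chr20:4494931-4528319, plus strand), also known as TID1, is the class A member of the mitochondria. It was at 136.9, 124, 142 and 129.8 CPM with uLPS and at 121, 113, 116 and 121 CPM with MRS2578, and these groups did not overlap either. Its log2 fold change was -0.18 (adjusted p = 0.873, SE 0.09) with the labels, -0.03 (adjusted p = 0.921, SE 0.10) with R02046 exchanged and -0.14 (adjusted p = 0.570, SE 0.09) without R02046. Of the 7 mitochondrial members, 6 had a negative log2 fold change with the labels, 3 with R02046 exchanged and 5 without R02046, with medians of -0.08, 0.05 and -0.009. Among all genes, 6426 of 12267, 6104 of 12267 and 6153 of 12154 were negative in the same order. With the labels, the most negative of the 7 was DNAJC4 (-0.31), followed by DNAJA3, DNAJC19 of the import motor (-0.10), DNAJC11 (-0.08), DNAJC28 (-0.07) and DNAJC30 (-0.03), and DNAJC15 was at 0.02.

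DNAJC25 (ENSMMUG00000023304, chr15:31169951-31190908, minus strand), a predicted membrane protein, was lower with MRS2578 in R07110 (134 to 106 CPM), R12016 (162 to 116 CPM) and R14143 (156 to 139.6 CPM), and higher in R02046 as labelled (142 to 153 CPM). Its log2 fold change was -0.22 (adjusted p = 0.873, SE 0.12) with the labels, -0.27 (adjusted p = 0.199, SE 0.09) with R02046 exchanged and -0.33 (adjusted p = 0.286, SE 0.10) without R02046. DNAJC18 (ENSMMUG00000018744, chr6:136812103-136854761, minus strand) was lower in all 4 pairs, at 17.1, 19.7, 15.5 and 17.1 CPM with uLPS and 13.1, 17.9, 14.9 and 14.6 CPM with MRS2578 in R07110, R12016, R02046 and R14143. Its groups overlapped, and its log2 fold change was -0.21 (adjusted p = 0.873, SE 0.12) with the labels, -0.18 (adjusted p = 0.521, SE 0.13) with R02046 exchanged and -0.25 (adjusted p = 0.474, SE 0.13) without R02046. Among members of vesicles and coats, DNAJC5 was at -0.08 and DNAJC13, which acts on endosomes, at 0.02. Among the 5 members of the ribosome, spliceosome and nucleus, 3 were positive and 2 negative, from -0.31 for DNAJC9 to 0.13 for DNAJC2, which binds the ribosome, with a median of 0.11.

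**Figure D3:**
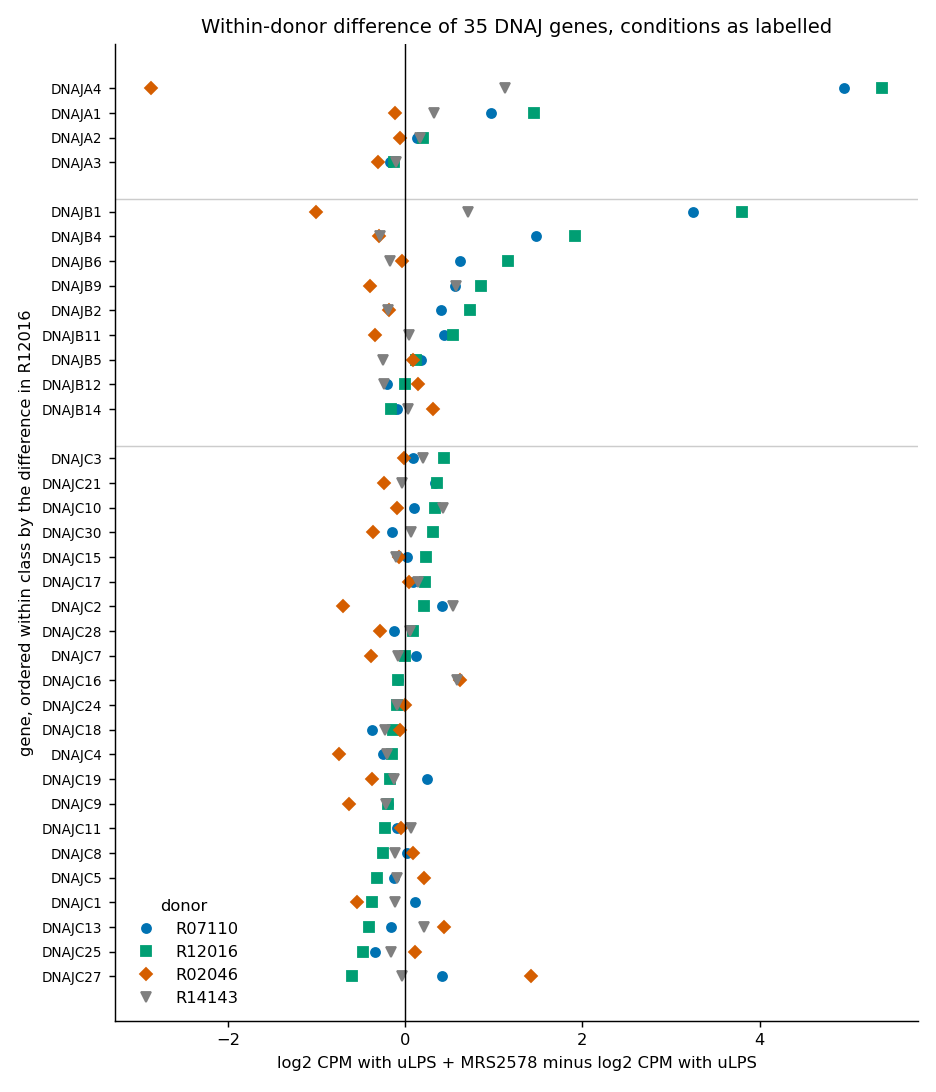
Log2 CPM with uLPS and MRS2578 minus log2 CPM with uLPS (horizontal axis) for each of the 35 DNAJ genes (vertical axis, grouped by class), with one symbol per donor and conditions as labelled. Only DNAJA4, DNAJB1 and DNAJB4 exceed a difference of 1 in both R07110 and R12016, and the DNAJC genes stay within -0.61 and 0.43 in these donors.

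The 3 classes were then compared by their median within-animal difference, on the log2 CPM scale and without a test, since the members of a class are not replicates. In R07110 the median was 0.55 for 4 DNAJA, 0.44 for 9 DNAJB and -0.01 for 22 DNAJC genes, beside 0.002 for all 12267 genes. In R12016 it was 0.83, 0.73 and -0.12, beside -0.002. In R14143 it was 0.25, -0.17 and -0.06, beside -0.025. In R02046 as labelled it was -0.21, -0.18 and -0.06, beside -0.001, and the exchange turns these to 0.21, 0.18 and 0.06. The medians of classes A and B thus lay above that of class C in R07110 and R12016 and below it in R02046 as labelled, and in R14143 class A lay above and class B below, while the genes of the classes overlapped in every donor.

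**Figure D4:**
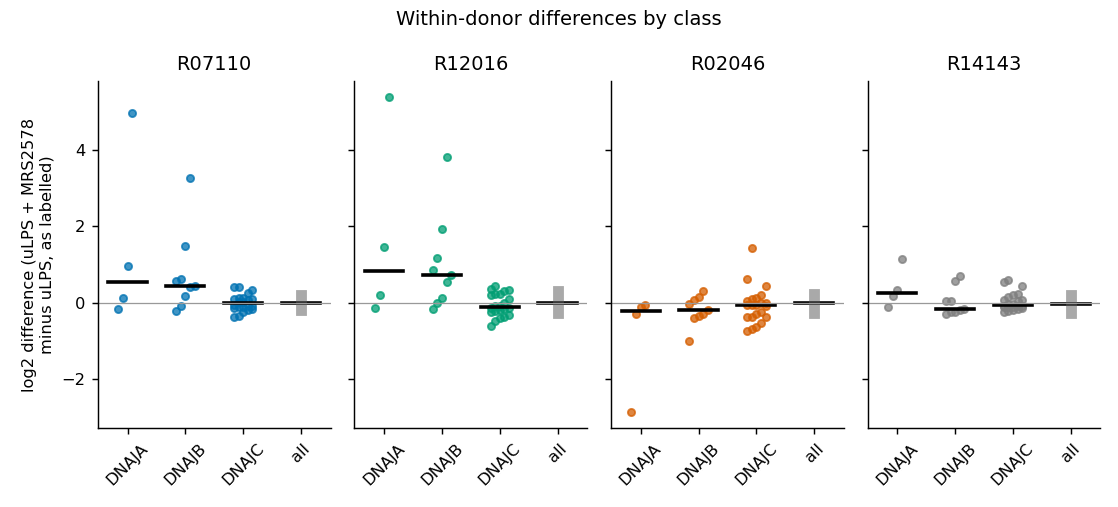
Within-donor log2 difference (vertical axis, uLPS with MRS2578 minus uLPS as labelled) of the DNAJA, DNAJB and DNAJC genes in each donor, with points for genes, black lines for medians and, under all, the median and the quartiles of the 12267 genes as a grey bar. The medians of DNAJA and DNAJB lie above that of DNAJC in R07110 and R12016 and below it in R02046.

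The spread within a class was larger than the gap between classes. In R12016, class A ran from -0.13 (DNAJA3) to 5.38 (DNAJA4), class B from -0.16 (DNAJB14) to 3.80 (DNAJB1) and class C from -0.61 (DNAJC27) to 0.43 (DNAJC3). In class B, DNAJB1 and DNAJB4 were followed by DNAJB9 of the ER in the fitted log2 fold change. The 3 cytosolic class A members had a median log2 fold change of 0.66 and the 5 cytosolic class B members one of 0.40 with the labels. Each of the 8 was positive, as were 5841 of all 12267 genes. With R02046 exchanged the medians were 0.72 and 0.41, and DNAJB5 was the 1 that turned negative (-0.01). DNAJA2 and DNAJB2, the other cytosolic members, were at 0.11 and 0.19 with the labels. Taken over a class, the median of the fitted log2 fold changes was 0.39, 0.19 and -0.06 for DNAJA, DNAJB and DNAJC with the labels, 0.43, 0.34 and 0.02 with R02046 exchanged and 0.54, 0.34 and -0.01 without R02046, where all genes had -0.011, 0.002 and -0.004.

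The direction was also counted over the members. Of the 35, 10 were higher with MRS2578 in R07110, R12016 and R14143 alike, where 16.9% of all genes were, and 8 were lower in these 3 donors, where 19.7% of all genes were. Of the 10, 9 were lower in R02046 as labelled, a pattern of 10.6% of all genes, and DNAJC17 was higher in all 4 donors (6.37% of all genes). DNAJA3, DNAJC4, DNAJC9 and DNAJC18, 4 members, were lower in all 4 donors (6.52% of all genes). At least 2-fold higher in R07110 and R12016 were 3 members (2.00% of all genes), and 0 were at least 2-fold lower in both (0.734% of all genes). As labelled, no member had all 4 libraries with MRS2578 above all 4 with uLPS (0.685% of all genes), and DNAJA3 and DNAJC9 had them below (0.424%). With R02046 exchanged, DNAJA4, DNAJB1 and DNAJC2 had all 4 above (1.42%) and none had all 4 below (1.57%).

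In the test across all genes, the 35 members split into 20 positive and 15 negative log2 fold changes with the labels, with a median of 0.02 beside -0.01 for all genes. All 12267 genes split into 5841 positive and 6426 negative. Here 643 genes had an unadjusted p under 0.05. DNAJA1 was the 1 member among those raised (2.77% of all genes) and DNAJC9 the 1 among those lowered (2.47%). With R02046 exchanged, 77 genes were called at an adjusted p of 0.05 (0.628%) and 0 members, with a smallest adjusted p of 0.0575, for DNAJB9, by the quasi-likelihood test of edgeR. At an unadjusted p under 0.05, 8 members were raised (6.90% of all genes), which were DNAJA1, DNAJA4, DNAJB1, DNAJB4, DNAJB9, DNAJB11, DNAJC2 and DNAJC10, and 1 was lowered (9.53%), DNAJC25. Without R02046, 0 of 12154 genes were called (0.00%). The same 8 members were raised at an unadjusted p under 0.05 (5.67%) and the same 1 lowered (7.93%).

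**Figure D5:**
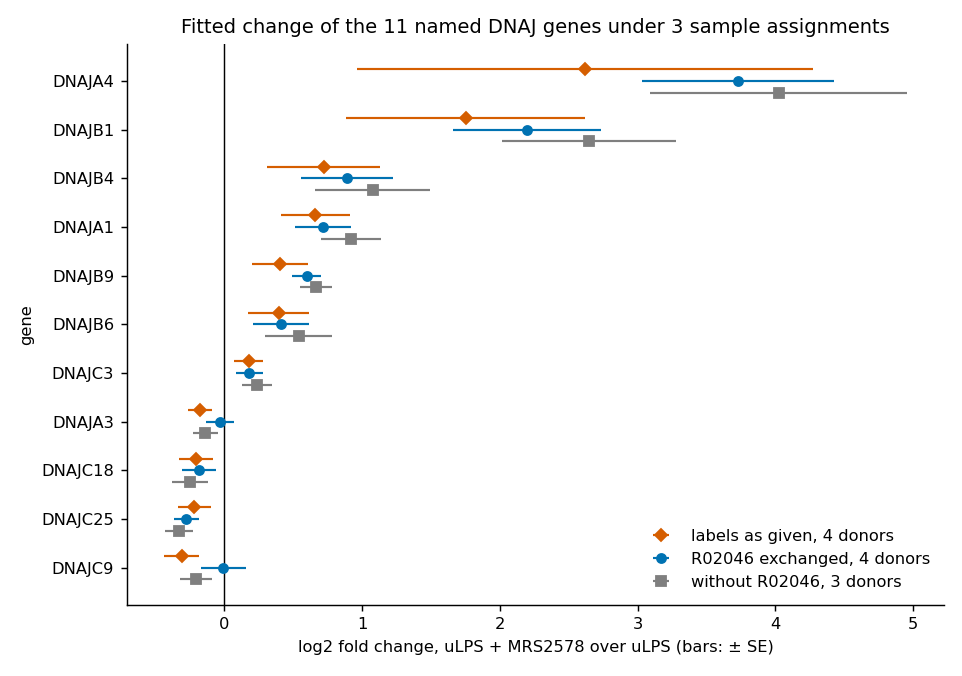
Fitted log2 fold change (horizontal axis, uLPS with MRS2578 over uLPS) of 11 DNAJ genes, with the SE as bars, for the labels as given, for R02046 exchanged and for the 3 donors without R02046. The SE of DNAJA4 is 1.66 with the labels and 0.70 with the exchange, and DNAJC9 lies at -0.31 and -0.01.

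Whether members were called depended on the assignment of R02046, on R14143 and on the test. With R02046 exchanged and R14143 left out, 917 of 11915 genes and 6 of 35 members were called: DNAJA1, DNAJA4, DNAJB1, DNAJB4, DNAJB9 and DNAJB11, all raised. With R02046 exchanged and all 4 donors, edgeR's likelihood ratio test called 5 of 35 members, beside 622 of 12267 genes. DESeq2's Wald test called the same 5, beside 577 of 12267 genes. They were DNAJA1, DNAJA4, DNAJB1, DNAJB9 and DNAJC2. With the labels as given, these tests called 0 members (5 genes and 1 gene).

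The partners of the DNAJ proteins were read from the same fit, as lists of HSP70 and HSP90 chaperones, exchange factors, couplers and ER stress genes. Of 47 genes listed, 42 were in the tables under these symbols and all 42 were tested. Of the 7 HSP70 genes of cytosol and nucleus listed, 3 were among them, and HSPA1A, HSPA1B, HSPA2 and HSPA6 were not. None of the 42 was called with the labels, with the exchange or without R02046. With the labels 34 were positive and 8 negative, with a median of 0.12 beside -0.01 for all genes, of which 5841 of 12267 were positive. HSPH1, a cytosolic exchange factor for HSP70, was at 230, 201, 468 and 215 CPM with uLPS in R07110, R12016, R02046 and R14143, and at 1541, 2517, 234 and 355 CPM with MRS2578. BAG3, another exchange factor, was at 54.7, 49.6, 212 and 52.4 CPM with uLPS and 691, 1268, 59.5 and 93.3 CPM with MRS2578. As for DNAJB1, R02046 as labelled was the pair in which both genes were lower with MRS2578, and the other 3 pairs had them higher. Their log2 fold changes were 1.58 (adjusted p = 0.873, SE 0.79) and 2.00 (adjusted p = 0.873, SE 1.19) with the labels, and 2.02 (adjusted p = 0.103, SE 0.47) and 2.76 (adjusted p = 0.0920, SE 0.60) with R02046 exchanged. Without R02046 they were 2.40 (SE 0.57) and 3.14 (SE 0.78).

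HSPA8, the constitutive cytosolic HSP70, had a log2 fold change of 0.56 (adjusted p = 0.873, SE 0.22) with the labels, and HSPA5, the BiP of the ER with which DNAJB9, DNAJB11, DNAJC3 and DNAJC10 work, one of 1.00 (adjusted p = 0.873, SE 0.56). HSPA9, the HSP70 of the mitochondria and partner of DNAJA3, was at 0.06 (adjusted p = 0.960). Of the other HSP70 genes of cytosol and nucleus tested, HSPA1L was at 1.46 (adjusted p = 0.873, SE 0.37) and HSPA14 at 0.02. HSPA1L was low, with 392 counts over the 8 libraries together and 0.762 to 9.34 CPM. With R02046 exchanged HSPA8, HSPA5 and HSPA9 were at 0.63, 1.32 and 0.17 (adjusted p = 0.105, 0.152 and 0.498), and without R02046 at 0.79, 1.57 and 0.15 (adjusted p = 0.164, 0.272 and 0.694). The 4 HSP110 and GRP170 genes, the 4 HSP90 genes and the 4 couplers and ubiquitin ligases were all positive, with medians of 0.66, 0.44 and 0.27. Of the 8 exchange factors tested, 5 were positive, with a median of 0.03, from -0.51 for GRPEL2 of the mitochondria to 2.00 for BAG3. Of the 10 other genes of the unfolded protein response, 7 were positive, with a median of 0.07. ATF4 (-0.65), DDIT3 (-0.47, SE 0.53) and XBP1 (-0.22) were negative. The log2 difference of DDIT3 was 0.04 in R07110, 0.89 in R12016, -0.46 in R02046 as labelled and -2.615 in R14143. The 4 J-domain proteins without the DNAJ prefix had a median of 0.09, and HSF1 and HSF2 were at -0.18 and 0.09.

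Other measures also differed within donors. The share of counts from the 13 protein-coding genes of the mitochondrial genome was 0.275% with uLPS and 0.187% with MRS2578 in R07110 and 0.313% and 0.187% in R12016, but 0.356% and 0.337% in R14143 and 0.310% and 0.298% in R02046 as labelled. The summed fibroblast and mural markers were at 152 and 243 CPM in R07110, 88.5 and 212 in R12016, 372 and 521 in R02046 and 1171 and 445 in R14143. The part of either measure in the DNAJ differences was not tested.

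As a description over the 35 members, the differences of R07110 and R12016 had a Spearman correlation of 0.67 and a Pearson correlation of 0.97, where all genes had 0.57 and 0.64. The corresponding values between R07110 and R14143 were 0.33 and 0.66, where all genes had 0.04 and 0.04. Between R12016 and R14143 they were 0.32 and 0.65, where all genes had 0.02 and -0.02. Without DNAJA4 and DNAJB1, the Pearson correlation over the other 33 members was 0.83 between R07110 and R12016, 0.12 between R07110 and R14143 and 0.13 between R12016 and R14143. With R02046 as labelled the correlations were -0.33 and -0.72 for R07110, -0.43 and -0.75 for R12016 and -0.11 and -0.48 for R14143, where all genes had -0.32 and -0.29, -0.27 and -0.25, and 0.03 and -0.02. Without DNAJA4 and DNAJB1 these Pearson correlations were -0.08, -0.29 and 0.08, and the exchange turns the sign of all of these values.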

How the data were processed

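RNA was sequenced from poly(A) selected, directional libraries of 8 microglia cultures, 2 from each of 4 macaques. The authors deposited whole-number counts of reads per gene for 35432 genes, without normalization. The paper names fastp, STAR, SAMtools and HTSeq, counting unique reads in exons of Mmul_10. The submitters' processing notes instead list Trimmomatic 0.30, TopHat2 2.0.14, SAMtools 1.3 and HTSeq 0.6.1p1, so the chain of tools is uncertain. Reads of near-identical copies are not counted, and the annotation release is not given in the sources used here. The depth was 9231109 to 32790348 counts per library.

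From these counts, genes with 10 or more counts in at least 4 libraries were scaled by TMM. MRS2578 was tested by the quasi-likelihood method of edgeR (edgeR 4.0.16, R 4.3.3), blocking on donor, and p-values were adjusted over all genes by Benjamini-Hochberg and called under 0.05. The SE was derived from the log2 fold change and its F statistic. Log2 CPM values used a prior count of 2. The fit was tested on simulated counts in which each changed gene had the same fold change in all 4 donors. In these data the differences varied between donors, so the simulation does not show how the test performs here. The libraries of a donor come from 1 animal, and their deviations from the condition means correlated at 0.59, 0.55, 0.46 and 0.55, which pairs them. No pair was a duplicate, with a chi-square per degree of freedom of at least 19.5. With donor as a block, p-values measure how the within-donor differences spread over the donors. Each donor gave 1 culture per condition, so differences between cultures and libraries are part of that spread and cannot be told apart from it.

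The members and lists were chosen with earlier results of these data known. Values per library are given for the 10 members with the smallest unadjusted p, for DNAJA4, DNAJB1 and DNAJB9, which the paper lists, and for the most abundant member of each class per kilobase of exon. DNAJB5, HSPH1 and BAG3 were added after their values were seen. Exon lengths, positions and sequences were read from NCBI's files for Mmul_10. The alternatives were size factors of the RLE type, DESeq2 1.42.0, edgeR's likelihood ratio test, other filters on low counts, no block, each donor left out, R02046 exchanged and a prior count of 0.25. The comparison columns of the supplementary table, which hold the authors' fold changes and FDR, were not used.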

Additional observations from a re-analysis of the deposited data

Results flagged for a closer look

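Sets of 4 libraries were checked for an extreme library, 70 in all (35 members in each of the 2 conditions, log2 CPM). The gap to its nearest neighbour, as a share of the whole range, exceeded Dixon's critical value in 6. Chance gives about 1 in 20 for a single set. The 70 sets share the same 8 libraries and are not independent, so the 6 cannot be set against that rate. All 6 concern R02046. The R02046 library labelled uLPS was the highest for DNAJA2 (123 CPM against 83.7 to 87.0, gap 0.899), DNAJB1 (276.5 against 104.5 to 115.3, gap 0.898), DNAJB11 (152 against 93.0 to 96.6, gap 0.923) and DNAJB6 (152 against 118 to 120, gap 0.928). The same library was the lowest for DNAJC27 (0.642 CPM against 1.92 to 2.36, gap 0.835). The R02046 library labelled MRS2578 was the highest for DNAJA2 (119 CPM against 95.1 to 96.3, gap 0.944). DNAJA2 was therefore high in both libraries of this donor, and the library labelled uLPS is the smallest of the 8. The labels and the supplementary expression table differ in the conditions of this donor.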

How the results depend on the processing

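With the labels as given, 0 genes and 0 DNAJ members were called with RLE size factors, with each of 3 other filters, without the replicate block, with the earlier edgeR quasi-likelihood estimation and with each donor left out. DESeq2's Wald test called 1 gene and edgeR's likelihood ratio test 5 genes, and both called 0 members. With R02046 exchanged, 77 genes and 0 members were called with the donor as a block and 0 of both without it. Under the exchange, 0 of 11754 genes were called without R07110, 5 of 11915 without R12016 and 917 of 11915 without R14143. Of the 35 members, 6 were called in the last of these only. Also under the exchange, 40 of 12267 genes and 0 members were called with the earlier estimation. The likelihood ratio test called 622 of 12267 genes and 5 of 35 members, and DESeq2 called 577 of 12267 genes and 5 of 35 members. These 3 fits and the earlier estimation with the labels were chosen after seeing the data. The cause of these differences was not tested, except that leaving out donors leaves fewer samples.

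The median over DNAJC genes of the mean within-animal log2 difference was -0.060 with the labels and 0.041 with the exchange, and 0.047, 0.073 and 0.089 when R07110, R12016 or R14143 was also left out. With the labels it lay between -0.056 and -0.034 with a donor left out. The medians of DNAJA (0.385) and DNAJB (0.191) with the labels and a donor left out ran from 0.242 and 0.090 without R12016 to 0.542 and 0.343 without R02046, and with R02046 exchanged and R14143 left out they were 0.488 and 0.441. Of 220 refits of the 11 named members, 201 kept direction and side of the threshold, 13 passed it, all under the exchange, and 6 turned sign, also under the exchange. These were DNAJA3 without R07110 (0.021) and without R12016 (0.010), and DNAJC9 without R07110 (0.066), R12016 (0.056) or R14143 (0.069) and with no block (0.016). The 7 members that were not compared missed the filter on low counts, and the part of depth in this was not tested.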
